A study of Homo sapiens with 12 samples.

Results

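The effect of palbociclib on human genes was compared between the recovery stage and the end of treatment, by testing the palbociclib minus vehicle difference after recovery minus the same difference at the end of treatment. The comparison used all 12 tumours of the series and its 58243 human gene identifiers, of 112389 human and mouse identifiers in all. The 18628 human genes with enough counts were tested together.

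RNA was sequenced from subcutaneous tumours of MCFDCIS, a human cell line whose grafts the labels describe as ductal carcinoma in situ, a breast cancer still inside the ducts, in athymic nude mice, which lack most T cells. Every tumour was given 2 weeks to establish before dosing, and there were 3 tumours in each of 4 groups. The palbociclib recovery tumours had 2 weeks of palbociclib and then a recovery period, and the vehicle recovery tumours had 2 weeks of vehicle and then a recovery period. The palbociclib initial and vehicle initial tumours were labelled as the initial response to 2 weeks of palbociclib or of vehicle and are called the end of treatment here. Palbociclib was given daily by mouth at 50 mg per kg, and the length of recovery is not in the labels. All tumours came from 1 cell line, and nothing in the labels says that each came from a separate mouse, so p-values reflect only how these tumours varied.

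Palbociclib blocks CDK4 and CDK6, the kinases that, with cyclin D, phosphorylate the retinoblastoma protein RB1 and so release E2F transcription factors. E2F factors switch on genes for DNA replication, and the DREAM and MYB-FOXM1 complexes then govern genes for mitosis, so cells held before S phase lose both sets of transcripts and regain them on re-entry. Genes of the response to low oxygen are driven by HIF factors, which also raise glucose transporters and glycolytic enzymes.

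Human counts per tumour lay between 6613880 and 12352064. The second vehicle recovery tumour stood apart at 113.4 on the leading principal component (42.8% of the variance), against -37.6 to 14.2 in the other 11. Mitochondrial genes held 5.32% and 11.2% of human counts in the second and the third vehicle initial tumours, against 0.674% to 2.64% in the other 10, so most list results are also given without the second vehicle recovery tumour, and without the other 2 where that moved a median. The line's 8 epithelial and basal markers, KRT17 highest, summed to between 7056 and 9943 CPM, which are counts scaled to the TMM-adjusted human total of each tumour, in palbociclib recovery, 7194 and 7927 in vehicle recovery, 7290 and 8018 in palbociclib initial and 6251 and 6616 in vehicle initial tumours. Human endothelial and fibroblast markers summed to between 61.2 and 230 CPM in any tumour, and blood and immune, adipocyte and muscle markers to between 0.908 and 21.5 CPM, with HBB at 0 in all. Summed levels of each of these 4 marker lists overlapped between palbociclib and vehicle tumours at both stages, and their part in the results was not tested. In bulk tumours, fewer cells of a kind and less RNA per cell cannot be told apart.

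The palbociclib effect differed between the stages for 41 genes, and in each of them the palbociclib minus vehicle difference was higher after recovery than at the end of treatment. Of the 41, 17 (41.5%) belonged to the lists of mitosis, G1/S or homologous recombination genes, which hold 0.623% of all genes tested, and these lists were chosen with earlier results known. They include the mitotic motor KIF20A and the S phase ubiquitin ligase subunit DTL. These 41 were 0.22% of the 18628 genes tested, at a Benjamini-Hochberg adjusted p under 0.05 in edgeR's quasi-likelihood test, which is what "passed" means throughout. In the other direction 0 genes passed by edgeR, although 329 had an unadjusted p under 0.05, DESeq2 called 5 and limma's voom with sample weights called 17. Among all genes tested, 973 or 5.22% had an unadjusted p under 0.05.

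All 41 genes also belonged to the 317 genes, 1.7% of those tested, that were lower in palbociclib than in vehicle tumours at the end of treatment. Both tests use the same initial tumours, so this is no independent support. Their median log2 fold change, palbociclib over vehicle, was -0.19 after recovery (range -0.77 to 0.37) and -2.06 at the end of treatment (range -3.30 to -0.97). The median difference between stages was 1.81 (range 0.80 to 2.92), beside a median of 0.010 over all genes tested.

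PIF1, a DNA helicase on chromosome 15 from 64815632 to 64825668 (GRCh38, GENCODE 29), had the highest difference among the genes that passed. It stood at 12.8, 10.6 and 9.22 CPM in palbociclib recovery, 14.7, 11.3 and 13.7 in vehicle recovery, 1.24, 1.34 and 1.35 in palbociclib initial and 11.9, 14.1 and 10.4 CPM in vehicle initial tumours. The palbociclib initial tumours were far below the other 9, and palbociclib and vehicle tumours overlapped after recovery. Its log2 fold change was -0.29 ± 0.18 after recovery and -3.21 ± 0.23 at the end of treatment, a difference of 2.92 ± 0.29 (SE, n = 3 tumours per group, edgeR adjusted p = 0.00101).

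KIF20A, a kinesin of cytokinesis on chromosome 5 from 138178719 to 138187715, stood at 87.1, 76.8 and 78.9 CPM in palbociclib recovery, 89.7, 109 and 87.7 in vehicle recovery, 13.8, 17.1 and 9.91 in palbociclib initial and 82.5, 87.6 and 69.4 CPM in vehicle initial tumours. After recovery the palbociclib tumours lay just below the vehicle tumours, without overlap, and within the range of the vehicle initial tumours. The difference between stages was 2.31 ± 0.23 on the log2 scale (SE, edgeR adjusted p = 0.00101). MKI67, the gene of the proliferation marker Ki-67 on chromosome 10 from 128096659 to 128126385, stood at 178, 186 and 184 CPM in palbociclib recovery, 178, 243 and 247 in vehicle recovery, 37.6, 56.0 and 28.8 in palbociclib initial and 185, 271 and 200 CPM in vehicle initial tumours. The palbociclib recovery tumours stood near the lowest vehicle tumours of either stage. Its difference was 2.14 ± 0.31 (SE, edgeR adjusted p = 0.0118).

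In all 41 genes every palbociclib initial tumour was below all other 9 tumours, an arrangement found in 5.98% of all genes tested. The 41 were chosen by a test on these same tumours, so this separation was largely set by that choice and is no added support. After recovery, the 3 palbociclib tumours lay below the 3 vehicle tumours without overlap in 8 of the 41, against 5.51% of all genes tested. KIF20A, described above, was among the 8.

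**Figure D1:**
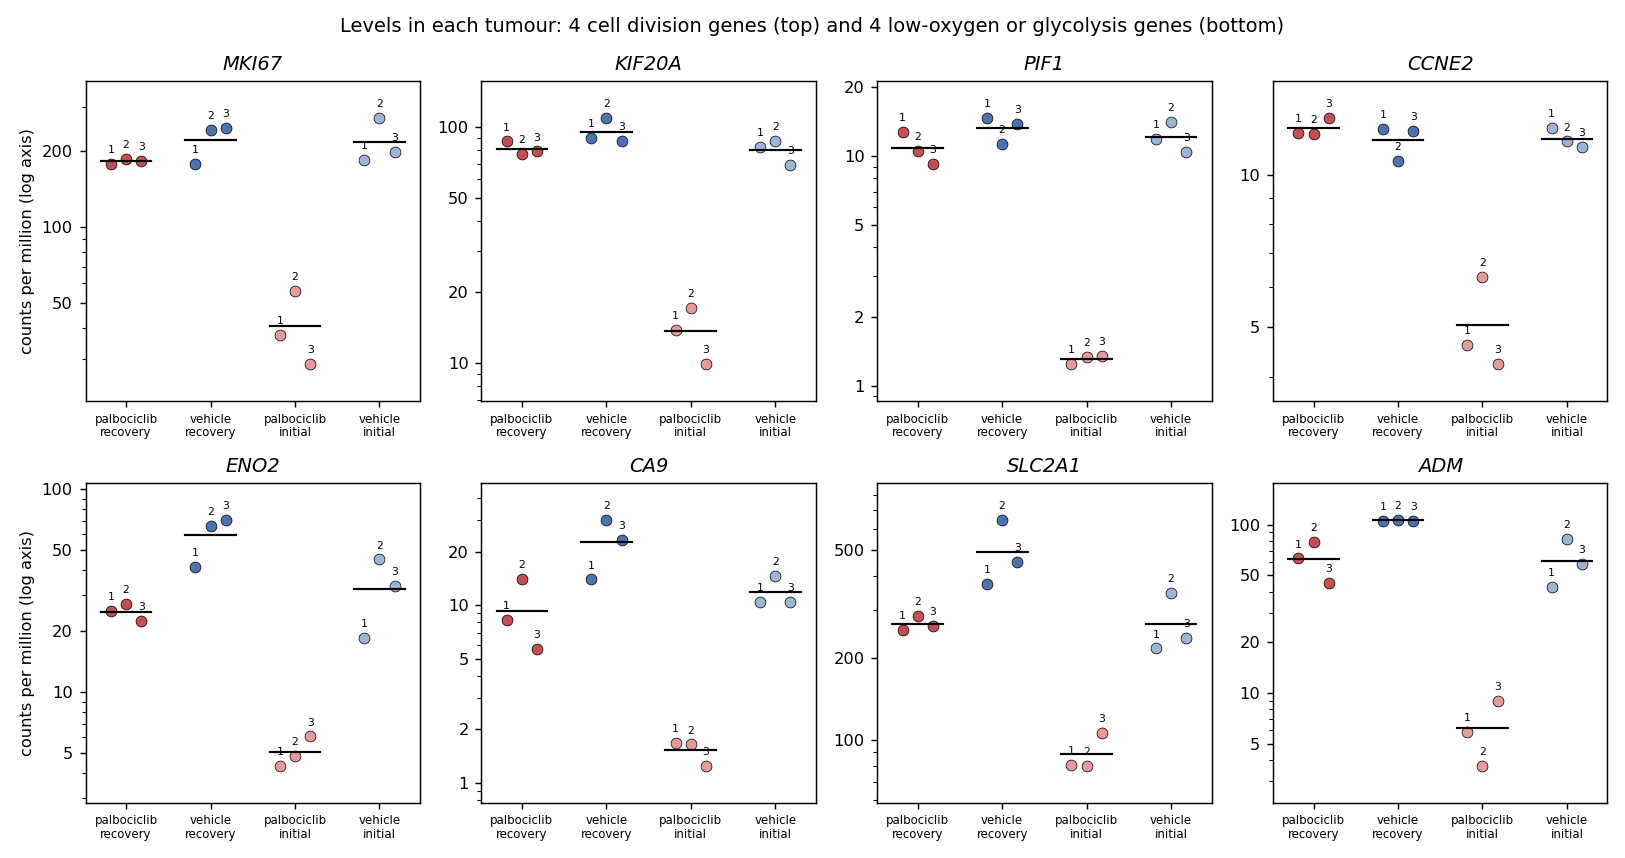
Level of 8 genes in each tumour, in CPM on a log axis, with 1 point per tumour (numbers are replicate numbers) and a line at the mean of each group of 3. In MKI67, KIF20A, PIF1 and CCNE2 the palbociclib initial tumours lie below all the others. After recovery the palbociclib tumours overlap the vehicle tumours in MKI67, PIF1 and CCNE2 and lie just below them in KIF20A. In ENO2, CA9, SLC2A1 and ADM the palbociclib recovery tumours lie near the vehicle initial tumours, and in all but CA9 below every vehicle recovery tumour.

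Most of the change between stages lay within the palbociclib arm. In that arm all 41 genes were higher after recovery than at the end of treatment by edgeR, with log2 fold changes between 1.02 and 3.33, and such a rise passed for 2.36% of all genes tested. Within the vehicle arm none of the 41 passed, with values between -0.34 and 0.80, while 5 had an unadjusted p under 0.05 and DESeq2 and voom called 1 each. No gene passed in the vehicle arm by edgeR (0 of 18628), where 1484 were higher and 1204 lower at an unadjusted p under 0.05, DESeq2 called 46 higher and 38 lower, and limma's voom 5 higher and 6 lower. The arms share tumours with the difference itself and are given as its parts.

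**Figure D2:**
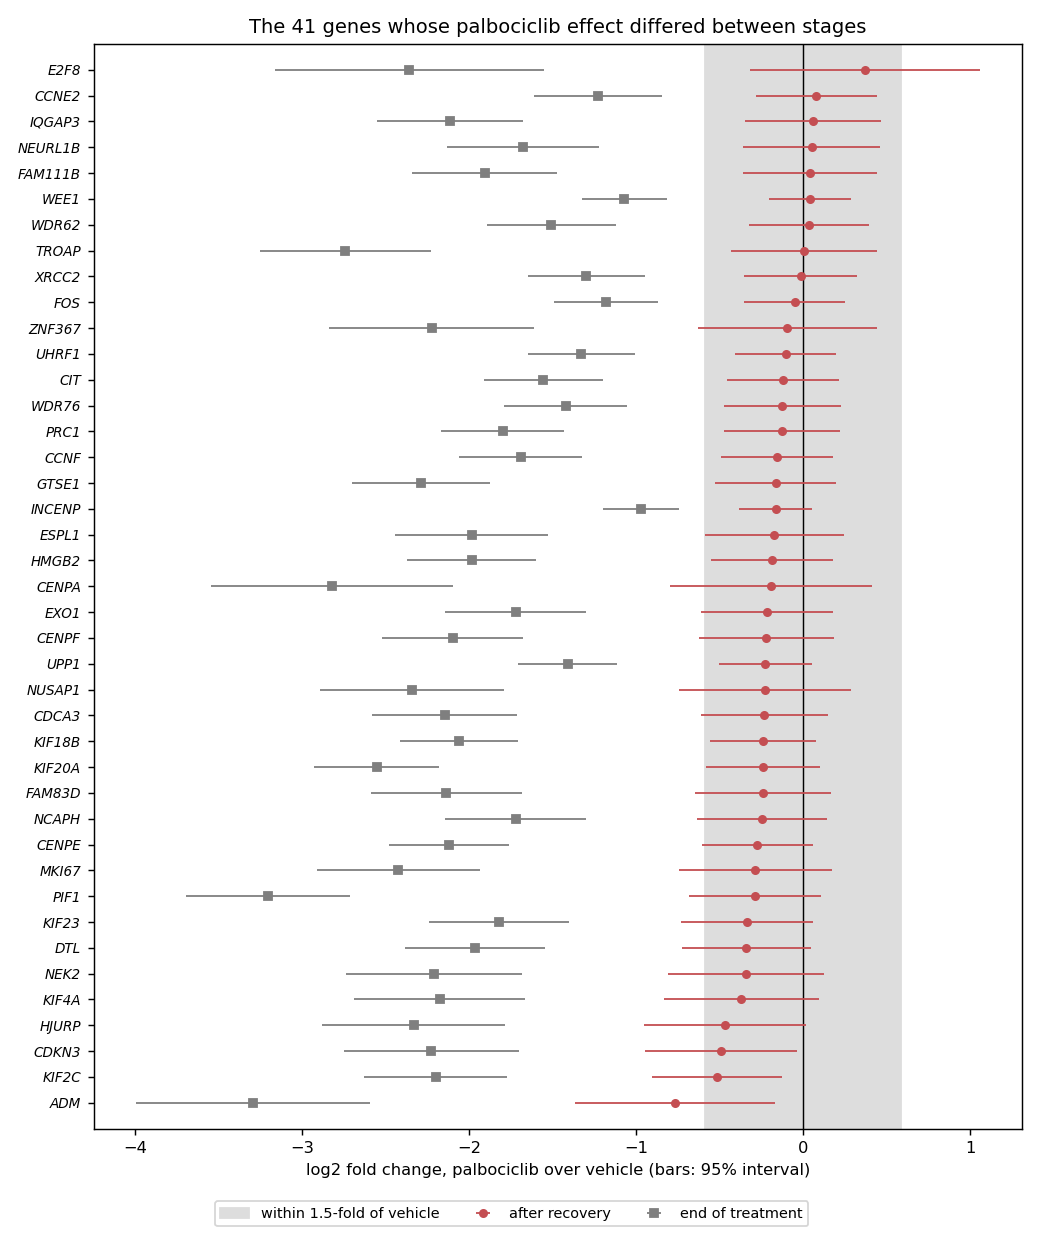
Log2 fold change, palbociclib over vehicle, of the 41 genes whose effect differed between stages, after recovery (circles) and at the end of treatment (squares), with 95% intervals as bars. Genes run down from the highest to the lowest value after recovery, and the grey band marks effects of less than 1.5-fold. At the end of treatment every gene lies between -3.30 and -0.97, and after recovery between -0.77 and 0.37.

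Whether a gene had returned to the vehicle level was read from the 95% interval of its effect after recovery, since a missed threshold does not show a return. For 20 of the 41 genes the interval lay inside 1.5-fold of vehicle in either direction (0.585 on the log2 scale), as it did for 38.6% of all genes tested. For 3 it lay wholly below 0, as it did for 5.45% of all genes tested, and for the other 18 it was too wide for either. The 3 were the kinesin KIF2C at -0.52, the phosphatase gene CDKN3 at -0.49 and ADM, which encodes the vasodilator peptide adrenomedullin, at -0.77. KIF2C and CDKN3 each stood at -0.29, and ADM at -0.76, without the second vehicle recovery tumour. Without the second vehicle recovery tumour 30 of the 41 intervals lay inside 1.5-fold and 2 below 0, beside 50.9% and 2.15% of all genes.

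Among genes of spindle and division that passed for the difference, PRC1, a crosslinker of the spindle midzone, stood at -0.13 ± 0.16 after recovery and -1.80 ± 0.17 at the end of treatment (SE). The kinetochore motor CENPE stood at -0.27 ± 0.16 and -2.12 ± 0.17, and the centromeric histone gene CENPA at -0.19 ± 0.28 and -2.82 ± 0.34. TROAP, which encodes a spindle-associated protein, stood at 0.01 ± 0.20 and -2.74 ± 0.24. The other 6 of the 12 highest differences not yet given were E2F8, NUSAP1, IQGAP3, ZNF367, GTSE1 and FAM111B, with values after recovery between -0.23 and 0.37. E2F8, a repressor among the E2F factors, had the highest value after recovery of the 41, at 0.37 ± 0.32.

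Of the 12 lowest differences that passed, CCNE2 and UHRF1 belong to the G1/S list. CCNE2, a cyclin that drives entry into S phase, on chromosome 8, stood at 12.1, 12.04 and 12.9 CPM in palbociclib recovery, 12.3, 10.6 and 12.2 in vehicle recovery, 4.62, 6.28 and 4.23 in palbociclib initial and 12.4, 11.6 and 11.4 CPM in vehicle initial tumours. The recovery groups overlapped, and the palbociclib initial tumours were separate. Its difference was 1.31 ± 0.25, close to the threshold (SE, edgeR adjusted p = 0.0495). WEE1, the kinase that restrains CDK1, differed by 1.11 ± 0.16, UHRF1, which maintains DNA methylation at replication forks, by 1.22 ± 0.21, and XRCC2, a gene of homologous recombination, by 1.28 ± 0.23 (SE). FOS, an immediate early gene, differed by 1.13 ± 0.20, and UPP1, a uridine phosphorylase, by 1.18 ± 0.19 (SE).

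The remaining 6 of the 12 lowest differences that passed were INCENP, WDR76, CIT, NCAPH, KIF23 and EXO1, of which INCENP, a subunit of the Aurora B complex, had the lowest at 0.80 ± 0.15 (SE). The exonuclease EXO1 differed by 1.504 ± 0.27, the condensin subunit NCAPH by 1.47 ± 0.27, and CIT and KIF23, both of cytokinesis, by 1.44 ± 0.23 and 1.48 ± 0.27 (SE). In each fit that left out 1 tumour, 11 genes passed throughout, namely PIF1, KIF20A, PRC1, CENPE, TROAP, GTSE1, IQGAP3, FAM111B, HMGB2, KIF18B and CDCA3.

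Several cell cycle genes of the fixed list did not pass for the difference. TOP2A, a topoisomerase of dividing cells, differed by 1.88 ± 0.35, with an edgeR adjusted p of 0.0638. It passed without the second vehicle recovery tumour (edgeR adjusted p = 0.047). E2F1 differed by 1.28 ± 0.36 and CCNE1 by 0.93 ± 0.35, at edgeR adjusted p values of 0.384 and 0.785. CDK6, CDK4, RB1 and CDKN1A, an inhibitor of cyclin-dependent kinases, did not pass, with values of -0.57 ± 0.25, -0.33 ± 0.37, -0.26 ± 0.23 and 0.06 ± 0.25 (SE, edgeR). The signs for CDK4, RB1 and CDKN1A turned under other settings.

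CCND1, the cyclin D1 gene on chromosome 11 from 69641087 to 69654474, moved the opposite way. It stood at 209, 222 and 258 CPM in palbociclib recovery, 229, 242 and 229 in vehicle recovery, 292, 344 and 363 in palbociclib initial and 183, 203 and 193 CPM in vehicle initial tumours. The palbociclib initial tumours were above all others, and the recovery groups overlapped. It was 0.79 ± 0.12 higher at the end of treatment and stood at -0.02 ± 0.12 after recovery, and the difference of -0.81 ± 0.16 did not pass (SE, edgeR adjusted p = 0.0738). Without the second vehicle recovery tumour it passed, at -0.79 with an edgeR adjusted p of 0.013.

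Upstream bases of 6 genes are shown, to show the short motifs counted next in the promoters of the division and low-oxygen lists. Each stretch holds the 120 bases before the RefSeq gene start (GRCh38.p14), from PIF1, PRC1, GTSE1 and MKI67, which passed for the difference, and from CA9 and ENO2 of the low-oxygen and glycolysis lists. Capitals mark TTTGAA (or TTCAAA), the core of the cell cycle genes homology region, CCAAT (or ATTGG), and ACGTG (or CACGT), the core of the hypoxia response element. The positions are PIF1 at chr15:64825648-64825767 (minus strand), PRC1 at chr15:90994536-90994655 (minus strand), GTSE1 at chr22:46296750-46296869 (plus strand), MKI67 at chr10:128126424-128126543 (minus strand), CA9 at chr9:35673808-35673927 (plus strand) and ENO2 at chr12:6914460-6914579 (plus strand).
PIF1: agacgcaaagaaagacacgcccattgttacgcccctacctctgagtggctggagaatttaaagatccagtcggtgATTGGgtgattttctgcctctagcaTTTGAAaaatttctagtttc
PRC1: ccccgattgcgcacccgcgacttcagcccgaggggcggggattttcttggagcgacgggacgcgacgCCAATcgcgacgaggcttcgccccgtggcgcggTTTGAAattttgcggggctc
GTSE1: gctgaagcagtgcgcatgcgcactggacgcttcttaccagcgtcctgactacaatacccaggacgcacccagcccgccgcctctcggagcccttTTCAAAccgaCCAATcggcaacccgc
MKI67: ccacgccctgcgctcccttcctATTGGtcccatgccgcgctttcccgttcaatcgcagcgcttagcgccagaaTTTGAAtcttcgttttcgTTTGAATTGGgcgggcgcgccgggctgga
CA9: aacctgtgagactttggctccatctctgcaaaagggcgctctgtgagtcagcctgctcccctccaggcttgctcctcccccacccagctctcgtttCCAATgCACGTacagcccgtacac
ENO2: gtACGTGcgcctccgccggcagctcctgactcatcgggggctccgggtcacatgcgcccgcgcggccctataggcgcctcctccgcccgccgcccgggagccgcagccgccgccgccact
The first 4 stretches hold TTTGAA with CCAAT in the same window, 2 copies of each in MKI67, where 1 copy of each overlaps. The last 2 hold ACGTG and no TTTGAA, and CA9 also holds CCAAT.

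Over windows of 300 bases, 250 before and 50 after the start and read on both strands, TTTGAA occurred in 25 of 38 matched promoters of the G2/M list (65.8%) and in 19 of 33 matched promoters of the 41 genes (57.6%). In the 11252 matched promoters of tested genes it occurred in 10.3%, and in all 27305 promoters in 15.4%. It occurred in 0 of 20 promoters of the low-oxygen list, where ACGTG occurred in 11 (55.0%), against 25.9% of tested genes, and ACGTG also occurred in 15 of 38 promoters of the G2/M list (39.5%). E2F-type motifs (TTT, then CC, GG, GC or CG, then CGC) occurred in 22 of 40 promoters of the G1/S list (55.0%), against 5.07% of tested genes. CCAAT occurred in 24 of 33 promoters of the 41 genes (72.7%) and 36.1% of tested genes, and in 7 of 23 promoters of the glycolysis list (30.4%). These matches describe letters in these windows and are not bound sites.

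By function, the G2/M and mitosis list had the highest median difference of the 7 lists with an effect to return from, 1.52. The median of its 45 log2 fold changes was -0.37 after recovery and -1.87 at the end of treatment, where 42 of 45 fell (1.7% of all genes). For the difference 11 of 45 passed, all upward (0.22% of all genes), including MKI67, KIF20A, CENPA and CENPE. DESeq2 called 27 for the difference and voom 38. The medians over all genes tested were near 0, at -0.0019 and 0.0014. The ratio of the medians was 0.20, below the 0.25 under which a list is called returned here.

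The return of the mitotic list was not shown to be complete. All 45 members had values below 0 after recovery, between -0.60 and -0.13, and in 19 of 45 the palbociclib tumours lay below the vehicle tumours without overlap, as in 5.51% of all genes. Intervals lay below 0 for 5 of 45 (11.1%, beside 5.45% of all genes), namely AURKB, NUF2, TTK, KIF2C and BUB1. Intervals inside 1.5-fold were as few, 5 of 45, beside 38.6% of all genes. AURKB, a mitotic kinase, stood at 16.4, 15.2 and 14.1 CPM in palbociclib recovery, 17.3, 31.4 and 20.8 in vehicle recovery, 3.46, 4.84 and 2.31 in palbociclib initial and 17.9, 18.1 and 14.2 CPM in vehicle initial tumours. Of the 12 tumours the second vehicle recovery tumour was the highest, and the palbociclib recovery tumours overlapped the vehicle initial tumours. That tumour was highest for the list as a whole, at a mean of 6.11 log2 CPM against 5.48 in each of the other 2 vehicle recovery tumours and 5.32 to 5.38 in the palbociclib recovery tumours. Without it the median after recovery was -0.11 and the ratio was 0.061. In that fit 22 of 45 intervals lay inside 1.5-fold and 1 below 0, near the shares of all genes, 50.9% and 2.15%.

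The G1/S and DNA replication list returned to a like degree. Its median over 47 genes was -0.19 after recovery and -0.83 at the end of treatment, where 22 of 47 fell (1.7% of all genes). For the difference 4 passed (0.22% of all genes), namely E2F8, CCNE2, DTL and UHRF1. After recovery 20 of 47 intervals lay inside 1.5-fold, beside 38.6% of all genes, and 3 below 0, beside 5.45%. The 3 were GINS3 at -0.69 ± 0.23 and GINS1 at -0.61 ± 0.25, subunits of the replicative helicase, and SLBP, which binds histone messages, at -0.31 ± 0.13 (SE). The SLBP interval, -0.578 to -0.041, also lay inside 1.5-fold, so SLBP is counted in both. GINS3 stood at 12.4, 11.4 and 12.4 CPM in palbociclib recovery, 15.5, 27.0 and 15.6 in vehicle recovery, 5.33, 7.72 and 4.62 in palbociclib initial and 11.6, 12.1 and 12.8 CPM in vehicle initial tumours. The second vehicle recovery tumour was again the highest, and without it GINS3 stood at -0.37 and GINS1 at -0.22. Without that tumour 33 of 47 intervals lay inside 1.5-fold and 0 below 0, beside 50.9% and 2.15% of all genes. The list's median was then -0.01 and its ratio was 0.016, against 0.23 with that tumour.

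The homologous recombination and Fanconi anaemia list, which repairs breaks and crosslinks during replication, had a median over 24 genes of -0.21 after recovery and -1.05 at the end of treatment, a ratio of 0.20 (0.026 without the second vehicle recovery tumour). At the end of treatment 14 of 24 fell (1.7% of all genes), and XRCC2 and EXO1 passed for the difference (0.22% of all genes). BARD1, the partner of BRCA1, missed it at 1.03 ± 0.20 (SE, edgeR adjusted p = 0.0576), and the helicase gene BLM stood at 0.95 ± 0.25 (edgeR adjusted p = 0.26). Both passed without the second vehicle recovery tumour (edgeR adjusted p = 0.0066 and 0.028). After recovery 11 of 24 intervals lay inside 1.5-fold, beside 38.6% of all genes, FANCM among them at -0.21 ± 0.12. RBBP8, an end resection factor at -0.91 ± 0.36, was the 1 interval below 0, beside 5.45% of all genes, and it had not passed at the end of treatment. RBBP8 stood at -0.29 without the second vehicle recovery tumour. In that fit 14 of 24 intervals lay inside 1.5-fold and 0 below 0, beside 50.9% and 2.15% of all genes.

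**Figure D3:**
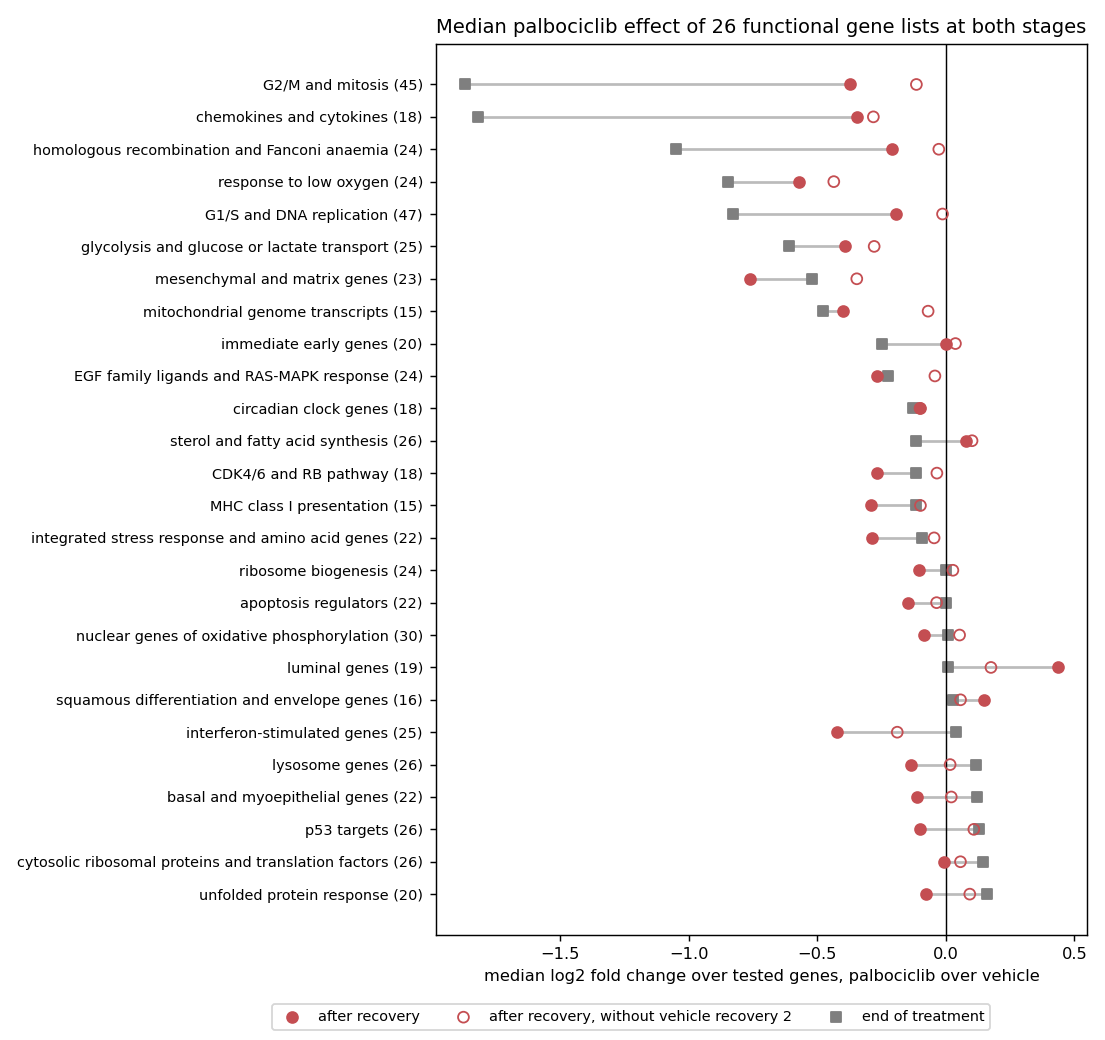
Median log2 fold change, palbociclib over vehicle, over the tested genes of 26 functional lists (number of genes in brackets), after recovery (filled circles), after recovery without the second vehicle recovery tumour (open circles) and at the end of treatment (squares). The G2/M list stood at -0.37 after recovery and -1.87 at the end of treatment, and the low-oxygen list at -0.57 and -0.85.

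By the ratio of medians, genes of the response to low oxygen met the limits for a partial return. The 24 tested genes of this list had a median of -0.57 after recovery and -0.85 at the end of treatment, a ratio of 0.67, between the limits of 0.25 and 0.75 that define a partial return here. At the end of treatment 13 of 24 fell (1.7% of all genes). For the difference 1 passed (0.22% of all genes), where DESeq2 and voom called 2 each. The median difference was 0.33, with 5 of 24 members below 0, and ranged from 0.24 to 0.46 leaving out 1 tumour. Without the second and the third vehicle initial tumours it was 0.29 and the ratio 1.12. A partial return is thus a reading of medians and was not shown gene by gene. After recovery 16 of 24 intervals lay below 0 (5.45% of all genes) and 5 inside 1.5-fold, and in 14 of 24 the palbociclib tumours lay below the vehicle tumours without overlap (5.51% of all genes). None of these genes passed after recovery by edgeR, where 1 gene of 18628 (0.00537%) did, 1613 (8.66%) had an unadjusted p under 0.05 and DESeq2 called 20. Of this list 16 had an unadjusted p under 0.05, and DESeq2 and voom called 0. Without the second vehicle recovery tumour 11 of 24 intervals lay below 0 (2.15% of all genes) and 9 inside 1.5-fold (50.9% of all genes), with a median of -0.44 and a ratio of 0.52.

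Mouse genes held 19.0% to 21.6% of gene counts in palbociclib recovery and 14.2% to 18.1% in vehicle recovery tumours, without overlap, and 17.0% to 25.4% in palbociclib initial and 15.5% to 17.4% in vehicle initial tumours. With that share as covariate the median after recovery was -0.59 for the low-oxygen list and -0.44 for glycolysis, and -0.14 for G2/M, 0.018 for G1/S and -0.02 for homologous recombination.

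CA9, a carbonic anhydrase long used as a marker of hypoxia, lies on chromosome 9 from 35673856 to 35681159. It stood at 8.27, 14.1 and 5.67 CPM in palbociclib recovery, 14.0, 30.3 and 23.3 in vehicle recovery, 1.69, 1.65 and 1.25 in palbociclib initial and 10.5, 14.6 and 10.4 CPM in vehicle initial tumours. The palbociclib recovery tumours were well above the palbociclib initial tumours, overlapped the vehicle initial tumours and overlapped the vehicle recovery tumours only at the lowest of them. Its log2 fold change was -1.27 ± 0.32 after recovery (95% interval -1.96 to -0.58) and -2.94 ± 0.39 at the end of treatment, and the difference of 1.67 ± 0.51 did not pass (SE, edgeR adjusted p = 0.51).

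VEGFA, the vascular growth factor, stood at 355, 398 and 231 CPM in palbociclib recovery, 457, 591 and 659 in vehicle recovery, 105, 129 and 132 in palbociclib initial and 354, 532 and 343 CPM in vehicle initial tumours. The 3 palbociclib recovery tumours were below all 3 vehicle recovery tumours and above all palbociclib initial tumours, with a log2 fold change of -0.80 ± 0.22 after recovery and -1.75 ± 0.22 at the end of treatment (SE). BNIP3, a mitophagy receptor, stood at -0.65 ± 0.17 and -1.37 ± 0.18. CA12, another carbonic anhydrase, stood at -0.58 ± 0.15 after recovery and at -0.33 ± 0.15 at the end of treatment, where it did not pass (SE, edgeR adjusted p = 0.492).

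ADM was the 1 gene of this list whose difference passed, at 2.53 ± 0.42 (SE, edgeR adjusted p = 0.0372). It lies on chromosome 11 from 10304680 to 10307397 and stood at 62.9, 78.5 and 45.2 CPM in palbociclib recovery, 105, 107 and 106 in vehicle recovery, 5.86, 3.71 and 8.95 in palbociclib initial and 42.5, 82.1 and 58.5 CPM in vehicle initial tumours. Its palbociclib recovery tumours lay far above the palbociclib initial tumours and below every vehicle recovery tumour. It passed in 4 of the 12 fits that left out 1 tumour and not without the second vehicle recovery tumour (edgeR adjusted p = 0.12). ANKRD37 and VLDLR, the next members by p for the difference, stood at 1.18 ± 0.35 and 0.63 ± 0.19 and did not pass (SE, edgeR adjusted p = 0.463 and 0.466). In the G2/M list KIF20A and CENPE passed in all 12 of these fits, MKI67 in 11 and CENPA in 2. Calls in the G1/S, homologous recombination and immediate early lists were no firmer than that of ADM by the count of these 12 fits. E2F8, CCNE2, DTL, UHRF1, XRCC2 and EXO1 each passed in 2 of the 12, and FOS in 1. For each of them the fit without the second vehicle recovery tumour was among those passed.

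Glycolysis and glucose or lactate transport genes had a median over 25 genes of -0.39 after recovery and -0.61 at the end of treatment, a ratio of 0.64, also between the limits. A return was not shown for this list, since its median difference was 0.11 with 9 of 25 members below 0, and -0.039 without the first vehicle recovery tumour. By the end of treatment 8 of 25 had fallen (1.7% of all genes), and 0 passed for the difference by edgeR. For the difference 6 had an unadjusted p under 0.05 (5.22% of all genes), DESeq2 called 1 and voom 5. After recovery 15 of 25 intervals lay below 0 (5.45% of all genes) and 6 inside 1.5-fold (38.6%), and 13 of 25 genes had palbociclib tumours below vehicle tumours without overlap (5.51%). These counts were 10 below 0 (2.15% of all genes) and 14 inside 1.5-fold (50.9%) without the second vehicle recovery tumour, with a median of -0.28, a ratio of 0.46 and a median difference of 0.31. ENO2, an enolase on chromosome 12 from 6913745 to 6923698, stood at 25.1, 27.2 and 22.4 CPM in palbociclib recovery, 41.4, 66.1 and 70.9 in vehicle recovery, 4.35, 4.84 and 6.06 in palbociclib initial and 18.6, 45.2 and 33.6 CPM in vehicle initial tumours. The palbociclib recovery tumours lay inside the vehicle initial range and below every vehicle recovery tumour. Its log2 fold change was -1.25 ± 0.28 after recovery and -2.66 ± 0.32 at the end of treatment, with a difference of 1.41 ± 0.41 that did not pass (SE, edgeR adjusted p = 0.477).

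SLC2A1, the glucose transporter GLUT1 on chromosome 1 from 42925375 to 42959176, stood at 255, 285 and 262 CPM in palbociclib recovery, 376, 647 and 452 in vehicle recovery, 80.6, 80.3 and 106 in palbociclib initial and 217, 349 and 238 CPM in vehicle initial tumours. The order was the same as for ENO2, with palbociclib recovery tumours inside the vehicle initial range. PFKFB3, which makes the activator of phosphofructokinase, stood at -0.75 ± 0.20 after recovery and -1.29 ± 0.20 at the end of treatment (SE). Values were smaller for 2 enzymes of the common pathway, GAPDH at -0.32 ± 0.15 and -0.31 ± 0.15 and PGK1 at -0.50 ± 0.15 and -0.58 ± 0.15 (SE), and neither passed at the end of treatment by edgeR. After recovery GAPDH stood at -0.16 and PGK1 at -0.32 without the second vehicle recovery tumour.

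The remaining gap in these lists lay beside higher levels in vehicle recovery than in vehicle initial tumours. The median log2 fold change of the vehicle arm, recovery over end of treatment, was 0.43 for the low-oxygen list and 0.50 for the glycolysis list, against 0.31 for the G2/M list and -0.0048 for all genes, and no member passed by edgeR. At an unadjusted p under 0.05 there were 9, 15 and 5 in that order, and DESeq2 called 0, 2 and 1. Of all 18628 genes, 1484 were higher and 1204 lower at that unadjusted p, a share that the G2/M count did not exceed. In the palbociclib arm the median was 0.71 for the low-oxygen list, 0.65 for glycolysis and 1.85 for G2/M. There 12 of 24, 11 of 25 and 43 of 45 members rose by edgeR, beside 2.36% of all genes. The mean level of the low-oxygen list was 6.22, 6.40 and 5.93 log2 CPM in palbociclib recovery, 6.53, 6.90 and 6.79 in vehicle recovery, 5.20, 5.18 and 5.31 in palbociclib initial and 6.08, 6.61 and 6.28 log2 CPM in vehicle initial tumours. The palbociclib recovery tumours overlapped the vehicle initial tumours and lay below the vehicle recovery tumours.

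The limits of the split between a return and a partial return are these. Leaving out 1 tumour at a time, the ratio ranged from 0.061 to 0.263 for G2/M, 0.016 to 0.383 for G1/S, 0.026 to 0.272 for homologous recombination, 0.52 to 0.81 for low oxygen and 0.46 to 0.82 for glycolysis, so each of these ranges crossed 1 limit. The ranges of the division and repair lists lay below those of low oxygen and glycolysis but overlapped that of chemokines, 0.093 to 0.445. Without the second and the third vehicle initial tumours the low-oxygen ratio was 1.12, with a median of -0.51 at the end of treatment, and the difference between lists was not tested.

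**Figure D4:**
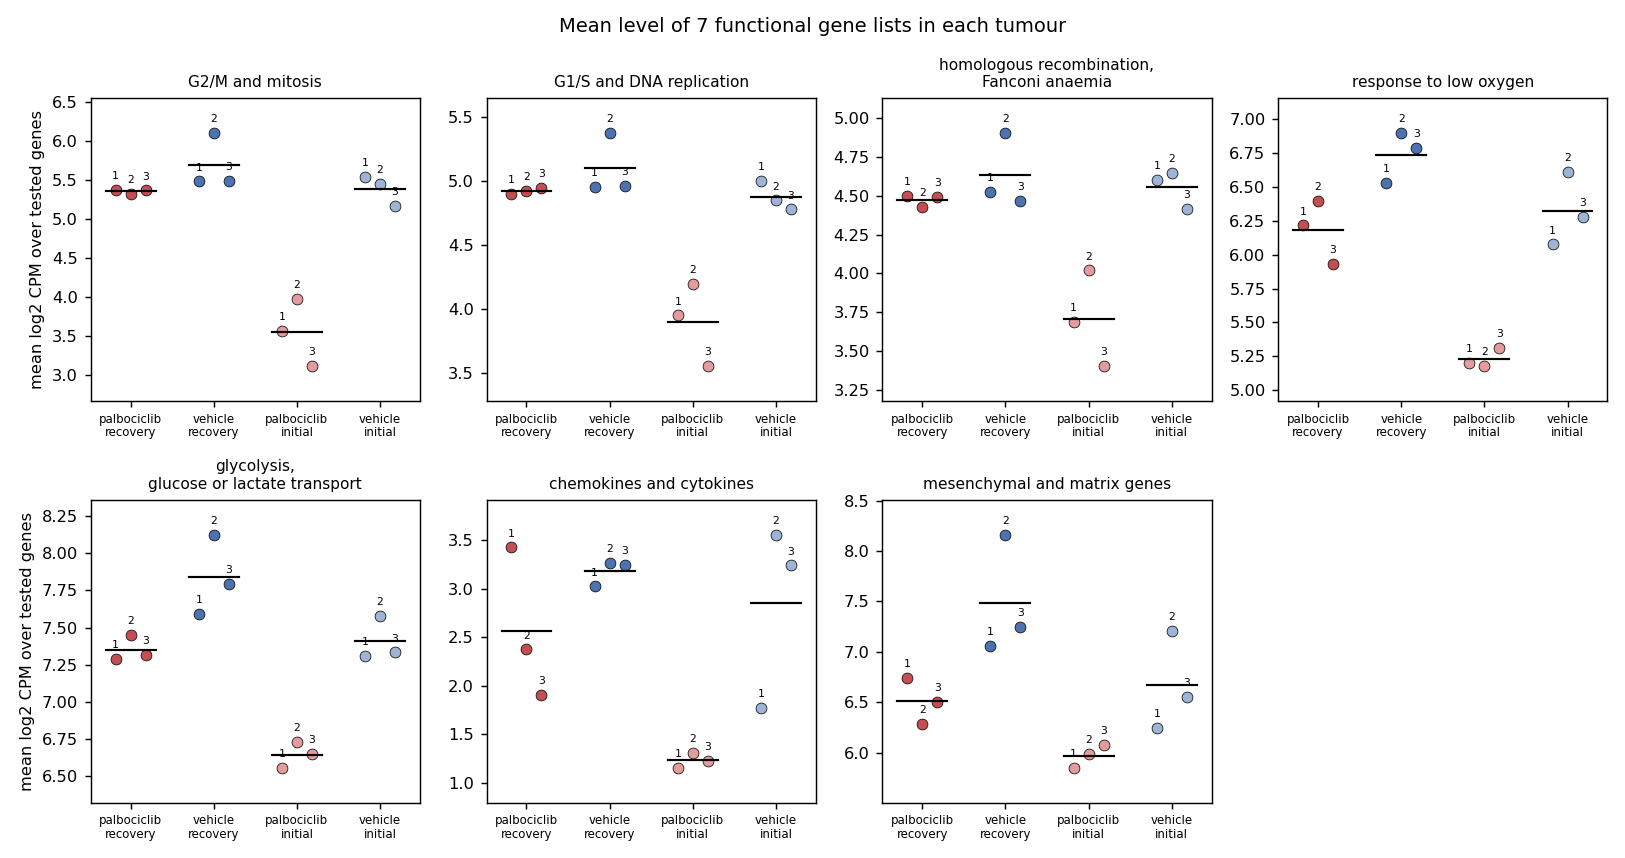
Mean log2 CPM over the tested genes of 7 functional lists in each tumour, with 1 point per tumour (numbers are replicate numbers) and a line at the mean of each group of 3. For the G2/M list the palbociclib recovery tumours lie between 5.32 and 5.38, against 5.48, 6.11 and 5.48 in vehicle recovery tumours. For the low-oxygen list they lie between 5.93 and 6.40, below all vehicle recovery tumours.

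The 317 genes that fell at the end of treatment were also divided by list and read in the recovery tumours, which were not on either side of that comparison but shared its estimate of spread. Of the 317, 292 had values below 0 after recovery, 104 (32.8%) had intervals inside 1.5-fold, against 38.6% of all genes, and 58 (18.3%) below 0, against 5.45% of all genes, and the median was -0.27. Of the 78 in a division or repair list, 18 intervals (23.1%) lay inside 1.5-fold and 7 (8.97%) below 0. Of the 21 in the low-oxygen or glycolysis lists, 3 (14.3%) lay inside 1.5-fold and 16 (76.2%) below 0. Without the second vehicle recovery tumour these counts were 44 (56.4%) and 1 of 78, and 3 and 13 of 21 (61.9%), beside 50.9% and 2.15% of all genes. Outside these lists, PRDM1, a transcriptional repressor, and HBEGF, an EGF family ligand, kept intervals below 0, at -1.10 and -0.66, and were chosen after their values were seen.

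The 18 tested chemokine and cytokine genes had a median of -0.35 after recovery and -1.82 at the end of treatment, a ratio of 0.19. At the end of treatment 3 of 18 fell (1.7% of all genes). For the difference 0 passed by edgeR, where 8 had an unadjusted p under 0.05 (5.22% of all genes), DESeq2 called 1 and voom 0. After recovery no interval lay below 0 (5.45% of all genes), but only 1 of 18 lay inside 1.5-fold (38.6% of all genes). Without the second vehicle recovery tumour 2 of 18 lay inside 1.5-fold (50.9% of all genes). Most intervals were too wide for either reading, so a return was not shown for this list. CXCL1, a neutrophil attractant, stood at 47.0, 37.3 and 20.1 CPM in palbociclib recovery, 59.1, 72.3 and 70.9 in vehicle recovery, 5.59, 6.59 and 6.83 in palbociclib initial and 15.03, 96.7 and 59.1 CPM in vehicle initial tumours. The first vehicle initial tumour lay below all palbociclib recovery tumours. Its difference was 2.20 ± 0.75 (SE, edgeR adjusted p = 0.712). CSF1 and CSF2, growth factors of macrophages and granulocytes, differed by -0.76 ± 0.33 and 1.205 ± 1.17, which did not pass (SE, edgeR), and the sign for CSF2 turned without the second vehicle initial tumour. Without the second and the third vehicle initial tumours the list's median at the end of treatment was -0.68 and its ratio 0.52. Without the first palbociclib recovery tumour its median difference was 0.36, against 1.33 with all tumours.

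Mesenchymal and matrix genes were the 1 list past the limits whose median was lower after recovery than at the end of treatment. The 23 tested genes had medians of -0.76 after recovery and -0.52 at the end of treatment, and 0 passed at either stage or for the difference by edgeR. At an unadjusted p under 0.05 there were 16 after recovery (8.66% of all genes), all with intervals below 0 (5.45% of all genes). There were 6 at the end of treatment, beside 593 higher and 1245 lower of all 18628 genes, and 0 for the difference (5.22% of all genes). DESeq2 called 1, 4 and 0 in that order. After recovery 1 of 23 intervals lay inside 1.5-fold (38.6% of all genes). COL6A1, a collagen chain, stood at 167, 176 and 100.2 CPM in palbociclib recovery, 255, 906 and 356 in vehicle recovery, 116, 136 and 133 in palbociclib initial and 218, 260 and 152 CPM in vehicle initial tumours. The second vehicle recovery tumour was by far the highest, and palbociclib tumours were below vehicle tumours after recovery. COL6A1, COL6A2 and MMP2 stood at -1.78 ± 0.42, -1.76 ± 0.51 and -1.15 ± 0.27 after recovery (SE), and at -1.05, -0.94 and -0.69 without the second vehicle recovery tumour. Without the second vehicle recovery tumour the median after recovery was -0.35, 4 of 23 intervals lay below 0 (2.15% of all genes) and the ratio was 0.67 in place of 1.46. Without the second and the third vehicle initial tumours the median at the end of treatment was -0.14.

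The immediate early list held 1 gene that passed for the difference, FOS, out of 20 (0.22% of all genes). The list medians were -0.00065 after recovery and -0.25 at the end of treatment. JUN and KLF4, other transcription factors of the list, stood at 0.78 ± 0.19 and 1.52 ± 0.41 and did not pass (SE, edgeR adjusted p = 0.184 and 0.336). Both passed without the second vehicle recovery tumour (edgeR adjusted p = 0.0027 and 0.035). FOS stood at 87.2, 78.9 and 90.6 CPM in palbociclib recovery, 79.4, 105 and 81.1 in vehicle recovery, 31.3, 32.4 and 31.6 in palbociclib initial and 64.7, 87.3 and 63.7 CPM in vehicle initial tumours. The recovery groups overlapped, and the palbociclib initial tumours were lower than the other 9. The 19 functional lists, this one included, that did not move far enough at the end of treatment for a ratio had medians between -0.42 and 0.44 after recovery and between -0.48 and 0.16 at the end of treatment.

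The 26 genes that rose at the end of treatment, 0.14% of those tested, were read in the same way. After recovery their median was 0.17. Of their intervals 14 (53.8%) lay inside 1.5-fold, beside 38.6% of all genes, and 9 (34.6%) lay above 0, beside 3.21%. An interval can be counted in both. Among those back inside 1.5-fold were CCND1 and MXD4, an antagonist of MYC, at -0.02 and -0.0019. Among those above 0 were TGFBR3, a co-receptor for TGF-beta, at 0.63, TAGLN, an actin-binding protein of contractile cells, at 0.33, and FMO5, a flavin monooxygenase, at 0.84, chosen after their values were seen.

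The count of genes that differed between stages moved with every tumour left out. It lay between 12 and 22 in 10 of the 12 such fits and was 70 without the second palbociclib initial tumour. Without the second vehicle recovery tumour 161 genes passed, 154 higher (0.796% of those tested) and 7 lower (0.0362%), and 40 of the 41 were among them. The 7 included CCND1, MXD4, ENPP2 and VSNL1, all of which had risen at the end of treatment. Without the second and the third vehicle initial tumours 4 genes passed, all among the 41, with 1 vehicle initial tumour left, which is assumed to vary like the other groups. For the end of treatment, 748 genes passed without the second vehicle recovery tumour, 160 and 173 without the first and the third palbociclib initial tumours and 196 without the second vehicle initial tumour, against 343 with all.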

How the data were processed

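The authors deposited raw counts per Ensembl gene for each tumour, with human and mouse genes together. CASAVA 1.8, cutadapt, STAR, edgeR, GRCh38 and GRCm38 are named without roles in the submitters' processing notes, and the libraries were TruSeq RNA per the labels' protocols. With counting program, strand setting and annotation release not given in the sources used here, pseudogenes and overlapping or antisense genes are uncertain. In each file 4 rows that name no gene, 37.0% to 69.1% of all counts, were left out, as were 713 repeated rows of 484 identifiers. Symbols and coordinates came from GENCODE 29, for 57980 human identifiers.

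Human counts were fitted in R 4.3.3 with edgeR 4.0.16 (TMM scaling on the human total, filterByExpr defaults with a minimum count of 10 and total of 15, glmQLFit with robust estimation, 4 group means). The biological coefficient of variation was 0.18. Intervals use the fit's standard errors and degrees of freedom, and an interval inside 1.5-fold can also exclude 0. No replicate pair agreed within sampling noise (chi-square over its degrees of freedom 4.55 to 63.2). Alternatives were DESeq2 1.42.0, limma 3.58.1 voom with sample weights, other scalings, filters and covariates, and each tumour left out, 25 in all.

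Tested on simulated data for the difference (18230 genes), the fit found 31 of 100 true 2-fold changes and 78 of 100 true 4-fold changes and made 9 false calls. The simulated counts were drawn around each gene's mean over all tumours, with changes only in the palbociclib initial group. No simulated tumour was set apart like the second vehicle recovery tumour, so these figures do not measure error in the real tumours. The 26 functional lists (616 tested genes) and all members were chosen with earlier results of these data known. A ratio of list medians was read only where 25% of members passed at the end of treatment or the median there was at least 0.5 in size, which 7 lists met. Named were fixed cell cycle genes, the 12 highest and 12 lowest differences that passed with a mean log2 CPM of at least 1, and 3 members per list with the smallest p for the difference or after recovery, 61 genes in all. Genes outside that rule are named as examples of their list. Promoters are from RefSeq.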

Additional observations from a re-analysis of the deposited data

Results flagged for a closer look

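The palbociclib effect differed between stages for 41 genes by edgeR's test of the difference itself. By that test the edgeR adjusted p was 0.00101 for KIF20A and PIF1, 0.00293 for TROAP, 0.00343 for GTSE1, 0.00345 for CENPE, 0.00521 for IQGAP3 and 0.00871 for FAM111B and PRC1. It was 0.0118 for MKI67 and WEE1, 0.0183 for CIT, KIF2C and UPP1, 0.0205 for DTL, 0.0266 for CENPA and UHRF1 and 0.0296 for NUSAP1 by edgeR. It was 0.0372 for ADM, ZNF367, FOS, EXO1 and XRCC2, 0.0381 for WDR76, NCAPH, E2F8, KIF23 and INCENP and 0.0495 for CCNE2 by edgeR. All have a positive difference.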

How the results depend on the processing

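Groups of 3 tumours and 1 tumour apart limit what can be told: intervals after recovery were often too wide to place a gene inside 1.5-fold of vehicle, and a partial return rests on medians, not on genes that passed. No paired analysis was possible because the labels give the groups no shared replicate numbers. The count for the difference, 41, was 104 by DESeq2, 246 by voom, 320 without a filter on low counts, 62 with upper quartile scaling, 16 with a covariate for the share of counts in the fourth row without a gene name, 4 without vehicle initial 2 and 3, 143 without these and vehicle recovery 2 (chosen after seeing the data), and 12 to 161 leaving out 1 tumour, the highest without vehicle recovery 2. The same settings but upper quartile scaling gave 524, 931, 753, 221 and 95 genes at the end of treatment (343 in the reported fit), with 147 under the mouse share as covariate, 971 in the 9 tumours with title numbers in the 700s (chosen after seeing the data; the 3 left out are all vehicle, and 1 vehicle recovery tumour remains, assumed to vary like the other groups) and 160 to 748 leaving out 1 tumour. After recovery, 1 gene in the reported fit, the counts were 20 by DESeq2, 2 by voom, 794 without a filter, 0 with a mean log2 CPM above 1, 0 with the mouse share, 0 without vehicle initial 2 and 3, 3 without these and vehicle recovery 2, and 0 to 3 leaving out 1 tumour. Of the 343 genes, 118 lay within 1.5-fold of vehicle after recovery, 251 by voom, 195 without the 3 tumours and 76 to 198 leaving out 1.

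List medians moved by more than the spread as follows. With the fourth row as covariate, G2/M stood at 1.88 for the difference and -2.22 at the end of treatment, homologous recombination at 1.08 for the difference and G1/S at -1.09 at the end of treatment. Without vehicle initial 2 and 3, chemokines stood at 0.15 for the difference and -0.68 at the end of treatment, low oxygen at -0.51 at the end of treatment and mesenchymal genes at -0.75 for the difference. With vehicle recovery 2 also left out, the difference was 0.14 for chemokines, 0.95 for G1/S, 1.96 for G2/M, 0.31 for glycolysis and 1.02 for homologous recombination, the end of treatment -0.68 for chemokines and -0.52 for low oxygen, and mesenchymal genes after recovery -0.34. Voom gave glycolysis 0.32 for the difference and -0.21 after recovery, the mouse share gave G1/S 0.018 after recovery, and the tumours in the 700s gave glycolysis 0.29 for the difference, homologous recombination -0.0038 and mesenchymal genes -0.28 after recovery. Leaving out 1 tumour, the difference ranged from 0.36 to 1.75 for chemokines, -0.039 to 0.31 for glycolysis and 0.64 to 1.03 for homologous recombination, the end of treatment from -1.27 to -0.83 for homologous recombination and -1.10 to -0.68 for G1/S, and mesenchymal genes after recovery from -1.06 to -0.35. The sign of a difference turned for genes that had not passed. With the fourth row as covariate CDK4 stood at 0.14 and CDKN1A at -0.033. Without vehicle initial 2 and 3, CDKN1A stood at -0.16 and CSF2 at -0.80. With vehicle recovery 2 also left out, CDK4 stood at 0.47, CDKN1A at -0.0013, CSF2 at -0.54 and RBBP8 at 0.028. In the 700s, MMP2 stood at 0.059, RB1 at 0.12 and RBBP8 at 0.13. Leaving out 1 tumour, CDK4 ranged from -0.54 to 0.14, CDKN1A from -0.13 to 0.20, CSF2 from -0.22 to 1.74 and RB1 from -0.42 to 0.0054. The cause was not tested. None of the named genes that passed for the difference turned its sign under any of the 25 alternatives.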
